A study of Mus musculus with 2 samples.

Results

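Single-cell ATAC-seq, which reads open chromatin through the cuts a transposase makes in each nucleus, was examined at 10 early B lymphoid genes in hematopoietic stem cells (HSCs) of C57BL/6 mice. The genes were Rag1, Rag2, Dntt, Il7r, Ebf1, Pax5, Igll1, Vpreb1, Cd79a and Cd79b. They were chosen by name as early B lymphoid genes, with earlier results of these data known. All 10 were found among the 21938 protein-coding genes of the annotation. Each age gave 1 library: the Young mice were 10 weeks old, the Aged mice 20 months. Both were sorted from bone marrow with the same surface markers, lineage-negative, Sca-1+, c-kit+, CD34-, CD150+, CD48- and Flt3-, with IL-7 also named as negative in the sort labels. The methods name the IL-7 receptor chain among the lineage markers. The mice were female per the methods, neither library carried a transgene or treatment, and the number of mice behind each library is not given in the sources used here. The comparison asked whether chromatin of the B lymphoid program differed between Young and Aged HSCs.

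B cells are built in steps. HSCs give rise to lymphoid progenitors that depend on the IL-7 receptor, and the transcription factors EBF1 and PAX5 then fix the B cell fate. The RAG1 and RAG2 recombinase cuts the immunoglobulin genes, and terminal transferase (Dntt) adds bases at the joints. The surrogate light chain (Igll1 and Vpreb1) and the signalling chains CD79A and CD79B are parts of the pre-B cell receptor. These proteins act in lymphoid progenitors and B cells, and output of lymphoid cells is known to decline with age.

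After limits on depth, 4887 Young and 3404 Aged cells remained, with 34674556 and 26164377 fragments inside peaks, and values below are fragments per 1000000 of these (FPM). With 1 library per age no test between ages was possible, and all 95% intervals (exact Poisson for levels, exact binomial for shares and ratios) cover counting error only. The Aged library had a lower share of fragments in peaks, 67.7% against 69.3%, a lower share of fragments shorter than the DNA of 1 nucleosome, 55.0% against 59.8%, and more cells marked as doublets, 7.31% against 4.17%. The part of these measures in the results was not tested. Outside peaks the Aged library held more fragments over the whole genome, with a log2 ratio of Aged over Young of 0.11. A count of 26 cell barcodes occurred in both libraries. The sort was examined with marker genes. Promoters of 10 HSC markers summed to 204 FPM in Young and 208 FPM in Aged, those of 10 B cell markers to 61.5 and 57.6 FPM, and no marker was at 0 in both libraries. The B cell sum came mostly from Cd72 and Cr2, and the median B cell marker promoter lay at 1.90 and 1.38 FPM against 16.1 and 16.8 FPM for HSC markers. Markers of T cells summed to 20.1 and 18.8 FPM, of myeloid cells to 23.4 and 23.4, of erythroid cells to 50.2 and 48.3 and of megakaryocytes to 141 and 129, with medians of 1.79 and 0.726, 1.20 and 1.40, 1.36 and 1.91, and 29.9 and 25.5 FPM. Megakaryocyte marker promoters thus lay above those of HSC markers in the median.

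The sequences that the results turn on are shown first. For the genes that cut and join immunoglobulin segments, for the receptor and for the surrogate light chain, these are the 150 bases before the RefSeq start (GRCm38.p6, the same build as mm10) in the direction of transcription. Capitals mark matches to fixed motifs searched on both strands, namely the E-boxes CAGCTG and CACCTG, EBF TCCCNNGGGA, IKZF TGGGAA, ETS/PU.1 GAGGAAG, RUNX TGTGGT, STAT5 TTCNNNGAA and FOXO TGTTTAC.
Rag1 promoter, chr2:101649533-101649682, minus strand: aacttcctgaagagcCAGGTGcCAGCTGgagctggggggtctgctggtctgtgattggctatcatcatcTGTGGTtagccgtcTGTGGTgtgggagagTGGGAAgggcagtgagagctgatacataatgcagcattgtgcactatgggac
Rag2 promoter, chr2:101624562-101624711, plus strand: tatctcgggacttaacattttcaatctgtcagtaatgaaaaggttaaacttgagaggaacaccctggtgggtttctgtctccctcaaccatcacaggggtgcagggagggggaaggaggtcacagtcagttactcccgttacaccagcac
Il7r promoter, chr15:9529877-9530026, minus strand: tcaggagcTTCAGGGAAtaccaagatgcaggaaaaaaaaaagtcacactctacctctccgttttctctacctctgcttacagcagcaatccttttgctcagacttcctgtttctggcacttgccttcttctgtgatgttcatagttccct
Igll1 promoter, chr16:16863986-16864135, minus strand: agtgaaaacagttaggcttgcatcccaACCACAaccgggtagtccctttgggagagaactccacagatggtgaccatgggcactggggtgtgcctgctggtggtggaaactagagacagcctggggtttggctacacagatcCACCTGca
The Rag1 stretch held both E-boxes, 2 RUNX matches and 1 IKZF match. The Il7r stretch held 1 STAT5 match, Igll1 held 1 RUNX match and 1 CACCTG, and Rag2 held none. A RUNX match occurred in 8.4% of the same stretch of all 32851 RefSeq promoters, CACCTG in 10.6%, CAGCTG in 8.39%, IKZF in 13.1% and STAT5 in 4.09%. A match describes the letters and is not evidence of binding.

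Of the 10 genes, 9 had a RefSeq promoter and Cd79b had none in the table used. Over 300 bases (250 before and 50 after the start), 7 of the 9 lay under the median ratio of observed to expected CpG of all promoters, 0.384. Il7r lay lowest at 0.0647 and Ebf1 (the first of its 2 entries) highest at 0.954. The promoters of Ebf1 and Pax5, which encode the transcription factors, were thus rich in CpG, and those of the receptor, recombinase and surrogate light chain genes were poor in it.

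Outside the promoters, the most accessible peaks near Rag2 and Dntt lay in their introns. The central 200 bases of these peaks are given on the plus strand. With them are the 2 Dntt peaks with the lowest ratio of Aged to Young, among peaks with at least 100 fragments (2.80 kb) and among those with at least 50 (10.1 kb), and the Ebf1 peak with the highest ratio among those with at least 100 fragments.
Rag2 intron, chr2:101628673-101628872: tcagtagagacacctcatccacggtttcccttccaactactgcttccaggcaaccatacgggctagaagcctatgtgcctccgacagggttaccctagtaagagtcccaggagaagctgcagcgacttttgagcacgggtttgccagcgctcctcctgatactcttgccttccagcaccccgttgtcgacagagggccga
Dntt intron, 2.02 kb from the start, chr19:41031194-41031393: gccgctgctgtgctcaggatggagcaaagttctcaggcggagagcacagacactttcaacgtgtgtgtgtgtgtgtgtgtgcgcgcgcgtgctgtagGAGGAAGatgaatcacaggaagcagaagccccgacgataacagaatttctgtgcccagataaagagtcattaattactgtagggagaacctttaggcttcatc
Dntt intron, 2.80 kb from the start, chr19:41031974-41032173: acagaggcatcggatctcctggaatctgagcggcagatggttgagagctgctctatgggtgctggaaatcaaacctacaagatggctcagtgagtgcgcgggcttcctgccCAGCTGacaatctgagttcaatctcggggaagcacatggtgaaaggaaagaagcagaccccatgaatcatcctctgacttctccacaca
Dntt intron, 10.1 kb from the start, chr19:41039231-41039430: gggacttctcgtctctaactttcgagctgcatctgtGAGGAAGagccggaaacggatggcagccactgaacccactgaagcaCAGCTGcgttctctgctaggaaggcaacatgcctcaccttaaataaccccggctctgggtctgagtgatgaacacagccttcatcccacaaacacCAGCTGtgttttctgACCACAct
Ebf1 intron, 48.2 kb from the start, chr11:44665408-44665607: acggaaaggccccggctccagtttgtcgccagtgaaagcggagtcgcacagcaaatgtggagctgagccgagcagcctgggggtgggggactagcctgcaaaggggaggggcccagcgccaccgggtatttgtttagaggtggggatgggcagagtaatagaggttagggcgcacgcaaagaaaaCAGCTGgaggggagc
The first Dntt peak held an ETS/PU.1 match, the second a CAGCTG, and the third an ETS/PU.1 match, 2 CAGCTG and 1 RUNX match. The Ebf1 peak held a CAGCTG. ETS/PU.1 matches occurred in 16.7%, RUNX matches in 21.7% and CAGCTG in 13.2% of the central 200 bases of all 166227 peaks. Of the 155 peaks in the 10 loci (the gene with 50 kb on either side), 18.1% held the ETS/PU.1 letters, 16.8% the RUNX letters and 12.3% the CAGCTG letters.

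Promoter accessibility was low at most of the genes in both libraries. Within windows of 1 kb on either side of the annotated 5' end, levels ran from 0.952 FPM at Igll1 to 31.8 FPM at Vpreb1 in Young HSCs. In Aged HSCs they ran from 0.955 FPM to 29.4 FPM at the same genes. Against all protein-coding promoters, by the sum of both libraries, Igll1 stood at percentile 28.4, Rag1 at 31.3, Ebf1 at 49.6 and Vpreb1 at 69.8. All 10 lay above the 95th percentile of 1128 olfactory receptor promoters, which was 0.519 FPM in Young and 0.560 FPM in Aged HSCs. Olfactory receptor genes are not known to be used in blood, so they serve as a background. Even so, the windows of Rag2, Dntt, Igll1 and Cd79a touched no peak. In Young HSCs, after Vpreb1, came Ebf1 (13.5), Cd79b (11.7), Rag2 (4.15), Pax5 (3.09), Il7r (2.28), Cd79a (1.87), Rag1 (1.79), Dntt (1.18) and Igll1 (0.952 FPM), and neighbours in that order after Vpreb1 had overlapping intervals except Cd79b and Rag2.

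**Figure D1:**
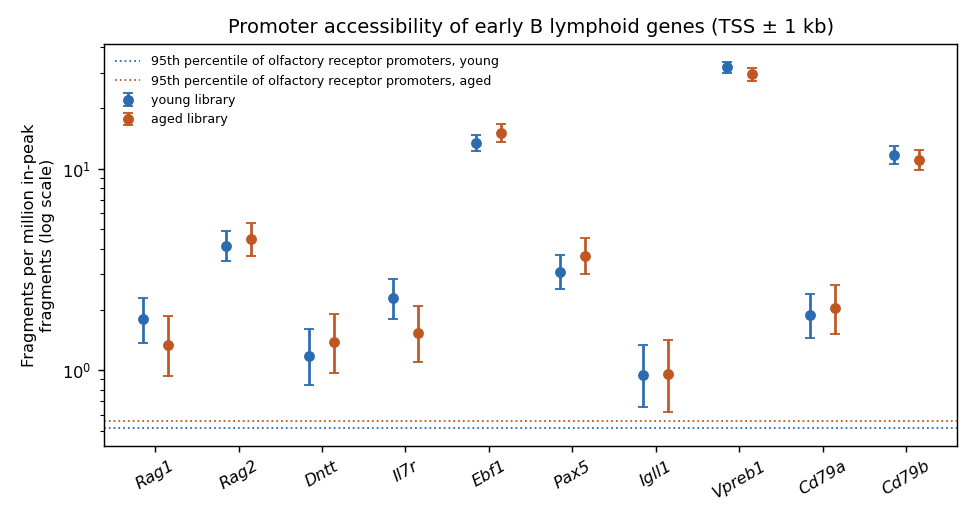
FPM (log scale) within 1 kb of the start of each gene in the Young and Aged library, with 95% Poisson intervals; dotted lines mark the 95th percentile of olfactory receptor promoters. All 10 genes lie above these lines, and the intervals of the 2 libraries overlap at every gene.

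The Vpreb1 value did not belong to Vpreb1 alone. Vpreb1 encodes a part of the surrogate light chain, and its annotated 5' end comes from non-coding transcripts that start 107 bp from the start of Top3b, a topoisomerase gene with an open promoter. Around the start of its coding transcript the window held 36 Young and 38 Aged fragments, which is 1.04 FPM (0.727 to 1.44) and 1.45 FPM (1.03 to 1.99), close to the level of Igll1, and its log2 ratio there was 0.48 (-0.21 to 1.18), against -0.11 in the main window. Sums over the genes are therefore also given without Vpreb1. The Rag1 window likewise held the start of B230118H07Rik, 31 bp away, and the Ebf1 window that of Gm37695.

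Promoters of the 10 genes together did not differ between ages beyond counting error. They summed to 72.4 FPM in Young and 70.9 FPM in Aged HSCs, a log2 ratio of -0.03 (-0.12 to 0.06), and without Vpreb1 to 40.5 and 41.5 FPM, a log2 ratio of 0.04 (-0.08 to 0.15). As a rule of size, a region with at least 50 fragments over both libraries was called lower where its Aged level was at least 20% below the Young level and higher where it was at least 25% above it, which is the same distance on the log2 scale. By it, 2 of the 10 promoters, Il7r and Rag1, were lower in Aged HSCs and none was higher, where 3.98% of 15978 protein-coding promoters were lower and 9.49% were higher. With each cell thinned to 3000 in-peak fragments none was lower, and Rag2 (0.35) and Cd79a (0.44) were higher. Il7r (-0.63) and Rag1 (0.03) then held 47 and 37 fragments, under the minimum of 50. With windows around coding transcript starts Vpreb1 (0.48) was higher, and with windows of 500 bp on either side Rag2 (0.36) was higher. The median log2 ratio was 0.06 over the 10 genes and -0.05 over all promoters.

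The recombinase genes are taken first. Rag1 had 62 fragments in Young and 35 in Aged HSCs, 1.79 FPM (1.37 to 2.29) and 1.34 FPM (0.932 to 1.86), and its log2 ratio of -0.40 (-1.06 to 0.20) was not detectable at this depth. With thinned cells its log2 ratio was 0.03, and with a window of 5 kb on either side 0.18. Rag2, the partner of RAG1 in the cutting enzyme, had 144 and 117 fragments, 4.15 FPM (3.50 to 4.89) and 4.47 FPM (3.70 to 5.36). Its log2 ratio was 0.11 (-0.26 to 0.47), so neither recombinase promoter differed beyond counting error. Dntt, which encodes terminal transferase, had 41 and 36 fragments, 1.18 and 1.38 FPM, with a log2 ratio of 0.22 (-0.47 to 0.90). Its sign turned to -0.18 with short fragments, -0.18 in windows of 500 bp and -0.20 in windows of 5 kb on either side, and that of Rag2 to -0.20 with short fragments and -0.055 in the 5-kb windows.

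Il7r encodes the chain of the IL-7 receptor that lymphoid progenitors carry. Its promoter had 79 fragments in Young and 40 in Aged HSCs, 2.28 FPM (1.80 to 2.84) and 1.53 FPM (1.09 to 2.08). Its log2 ratio of -0.56 (-1.16 to -0.01) was the lowest of the 10 and stood at percentile 1.43 of all promoters, although the intervals of the levels overlapped. Its level stood at percentile 32.1. Ratios of promoters with few fragments spread more widely by counting error, which the rank does not take into account. IL-7 stands as a negative marker in the sort labels of both libraries. The methods place an antibody against the IL-7 receptor chain, the product of Il7r, among the lineage markers. The part of this selection in the low level was not tested.

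Of the transcription factors, Ebf1, which opens B cell enhancers, had 468 and 394 fragments at its promoter, 13.5 FPM (12.3 to 14.8) and 15.1 FPM (13.6 to 16.6), with a log2 ratio of 0.16 (-0.04 to 0.35). Pax5, which holds cells in the B lineage, had 107 and 97 fragments, 3.09 FPM (2.53 to 3.73) and 3.71 FPM (3.01 to 4.52), with a log2 ratio of 0.27 (-0.15 to 0.67). A second group of coding starts of Pax5, further into the gene, was more open than the first: it held 956 and 740 fragments, 10.6 and 10.9 FPM per kb, against 1.51 and 1.82 FPM per kb at the upstream start. Its log2 ratio was 0.04 (-0.10 to 0.18). The annotated transcript 5730488B01Rik also starts in that window.

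At the parts of the pre-B cell receptor the libraries differed by less than counting error. Igll1, the other part of the surrogate light chain, had 33 and 25 fragments, and its log2 ratio was 0.02 (-0.80 to 0.80). Cd79a had 65 and 53 fragments and a log2 ratio of 0.12 (-0.44 to 0.66). Cd79b had 406 and 290 fragments, 11.7 FPM (10.6 to 12.9) and 11.1 FPM (9.84 to 12.4), and a log2 ratio of -0.08 (-0.30 to 0.14). Cd79b was the more open of the signalling partners in both libraries. With short fragments the log2 ratios of Igll1 and Cd79a were both -0.40, and with thinned cells that of Cd79b was 0.095.

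**Figure D2:**
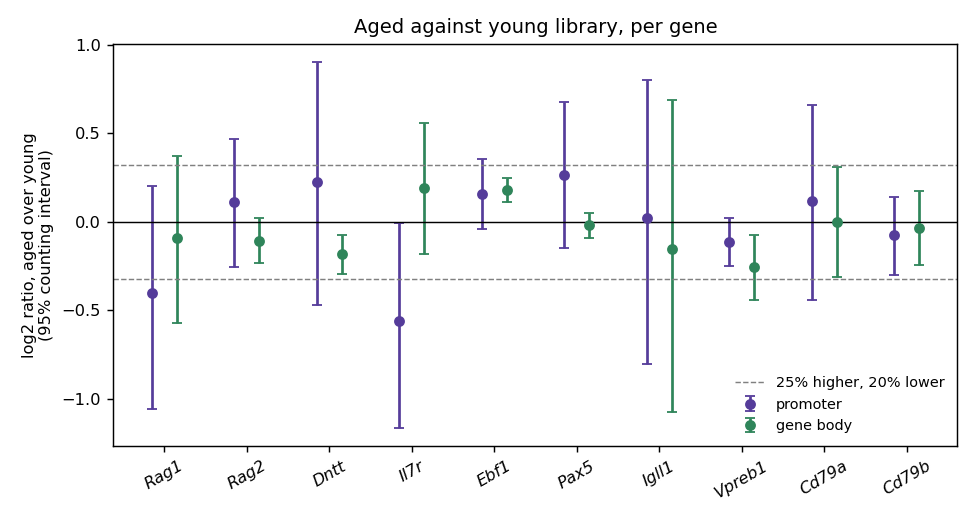
Log2 ratio of Aged over Young FPM at the promoter (1 kb on either side of the start) and over the gene body of each gene, with 95% counting intervals and dashed lines at 25% higher and 20% lower. Il7r and Rag1 promoters lie below the lower line at -0.56 and -0.40, and the Ebf1 (0.18), Dntt (-0.18) and Vpreb1 (-0.26) bodies have intervals that leave out 0.

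Gene bodies gave more fragments and narrower intervals. They summed to 357 FPM in Young and 360 FPM in Aged HSCs, a log2 ratio of 0.01 (-0.03 to 0.05), and without Vpreb1 to 339 and 345 FPM, a log2 ratio of 0.02 (-0.02 to 0.06). None of the 10 bodies passed that rule of size, where 3.22% of 18445 protein-coding gene bodies were lower and 9.19% higher. With fragments shorter than a nucleosome only, Rag1 (-0.88), Vpreb1 (-0.41) and Cd79a (-0.35) were lower, and without the 1 kb next to the start Il7r was higher (0.70, against 0.19 over the whole body). Within the limit, the intervals of 3 bodies left out 0. The Vpreb1 body, which includes the start of Top3b, held 624 Young and 394 Aged fragments, 18.0 and 15.1 FPM, a log2 ratio of -0.26 (-0.44 to -0.07). The Ebf1 body held 4020 Young and 3435 Aged fragments, 116 FPM (112 to 120) and 131 FPM (127 to 136), a log2 ratio of 0.18 (0.11 to 0.25). The Dntt body held 1724 and 1145 fragments, 49.7 FPM (47.4 to 52.1) and 43.8 FPM (41.3 to 46.4), a log2 ratio of -0.18 (-0.29 to -0.08).

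Inside peaks the Vpreb1 body had a log2 ratio of -0.35 (-0.54 to -0.15), and outside them, with 37 and 46 fragments, of 0.71 (0.06 to 1.39). Inside peaks the log2 ratio of the Ebf1 body was 0.25 (0.15 to 0.34) and that of the Dntt body -0.23 (-0.35 to -0.11). Outside peaks they were 0.11 (0.02 to 0.21) and -0.01 (-0.26 to 0.24), set against 0.11 for the whole genome outside peaks. Ebf1 body ratios stood at percentile 82.9, Dntt at percentile 11.4 and Vpreb1 at percentile 5.49 of all gene bodies, so many other genes differed as much. Per kb of gene, Rag2 was the most open after Vpreb1, with 4.61 and 4.28 FPM per kb, and Cd79b followed with 3.72 and 3.63. Il7r was the least open, with 0.160 and 0.182 FPM per kb. The Rag2 body had a log2 ratio of -0.11 (-0.23 to 0.02) and the Pax5 body of -0.02 (-0.09 to 0.05).

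The loci were then read in bins of 500 bp and in peaks, over each gene and 50 kb on either side. Rag1 and Rag2 share most of their flanks, as do Igll1 and Vpreb1, so each bin or peak was counted once. Of 311 bins with at least 50 fragments, 12.2% were lower in Aged HSCs by the same rule and 21.2% higher, against 13.1% and 26% of 271491 bins near all protein-coding genes. Of 125 peaks with at least 50 fragments, 26 (20.8%) were lower and 17 (13.6%) higher, against 15.5% and 22.5% of 113655 peaks near all protein-coding genes. In sum the 155 peaks had a log2 ratio of -0.05 (-0.07 to -0.02). This sum includes peaks at the starts of other genes, the largest at Rps19 with 2906 and 1960 fragments. The log2 ratio over all bins of a locus was also taken without bins within 1 kb of other coding gene starts. It moved from -0.08 to -0.05 (-0.10 to 0.004) at Cd79a and from -0.07 to -0.04 (-0.10 to 0.02) at Cd79b. At Igll1 it moved from 0.05 to 0.14 (0.06 to 0.22), at Vpreb1 from 0.04 to 0.12 (0.04 to 0.20) and at Rag2 from 0.02 to 0.07 (0.003 to 0.13). The whole genome outside peaks stood at 0.11, and the median of bins near all protein-coding genes at 0.058. At Dntt the ratio moved from -0.12 to -0.10 (-0.16 to -0.05), and no locus moved down. Loci differed from each other more than the sum over peaks shows.

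At the Dntt locus, whose flank holds the start of Blnk, more peaks were lower than higher in Aged HSCs. Of 17 peaks with at least 50 fragments, 7 (41.2%) were lower by the rule of size and none was higher. Over all peaks near protein-coding genes 15.5% were lower and 22.5% higher. Of the 17 peaks, 14 had a ratio below 0. For all 7 the interval lay below 0, and over all peaks near genes it lay below 0 for 14.2%. Of the 7, those with 43 and 17 and with 49 and 5 fragments reached the minimum through their Young fragments. Not all of the 7 lay nearest to Dntt. Some lay 250, 1243 and 4125 bp from the start of Blnk, the nearest gene start, and another lay in an intron of Tll2. With stricter peaks (q under 1e-06) 6 of 17 were lower and 1 higher. Of 38 bins 10 were lower and 5 higher, against 13.1% and 26% of bins near all protein-coding genes. The sum over the 18 peaks of the locus had a log2 ratio of -0.19 (-0.26 to -0.12). The most open peak, chr19:41030904-41031683, in the first part of the gene, had 783 Young and 534 Aged fragments and a log2 ratio of -0.15 (-0.31 to 0.01). The peak just after it, chr19:41031895-41032253, had 249 and 127 fragments and the lowest ratio among peaks with at least 100 fragments, -0.56 (-0.88 to -0.25). A smaller intronic peak, chr19:41039149-41039513, 10.1 kb from the start, stood furthest apart. It had 49 Young and 5 Aged fragments, from 47 and 5 cells, which is 1.41 and 0.191 FPM and a log2 ratio of -2.65 (-4.57 to -1.57). It was named after its value was seen. Its neighbour 9.06 kb from the start, under the minimum, had 24 and 5 fragments. Without doublets the larger of these peaks held 44 and 5 fragments. An intronic peak 22.9 kb from the start, with 125 and 112 fragments, had the highest ratio of the locus, 0.25 (-0.13 to 0.63). Upstream, a peak 6.92 kb before the start had a log2 ratio of -0.50 (-0.84 to -0.17), and one 12.9 kb before it 0.06 (-0.13 to 0.24). One 30.6 kb before it, 4125 bp from the start of Blnk, had a log2 ratio of -0.51 (-0.83 to -0.20). The peak at the start of the neighbouring gene Blnk, which encodes an adaptor of the B cell receptor and starts 34740 bp from Dntt, had 196 and 114 fragments and a log2 ratio of -0.37 (-0.72 to -0.04). The promoter window of Dntt itself touched no peak, like those of Rag2, Igll1 and Cd79a.

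**Figure D3:**
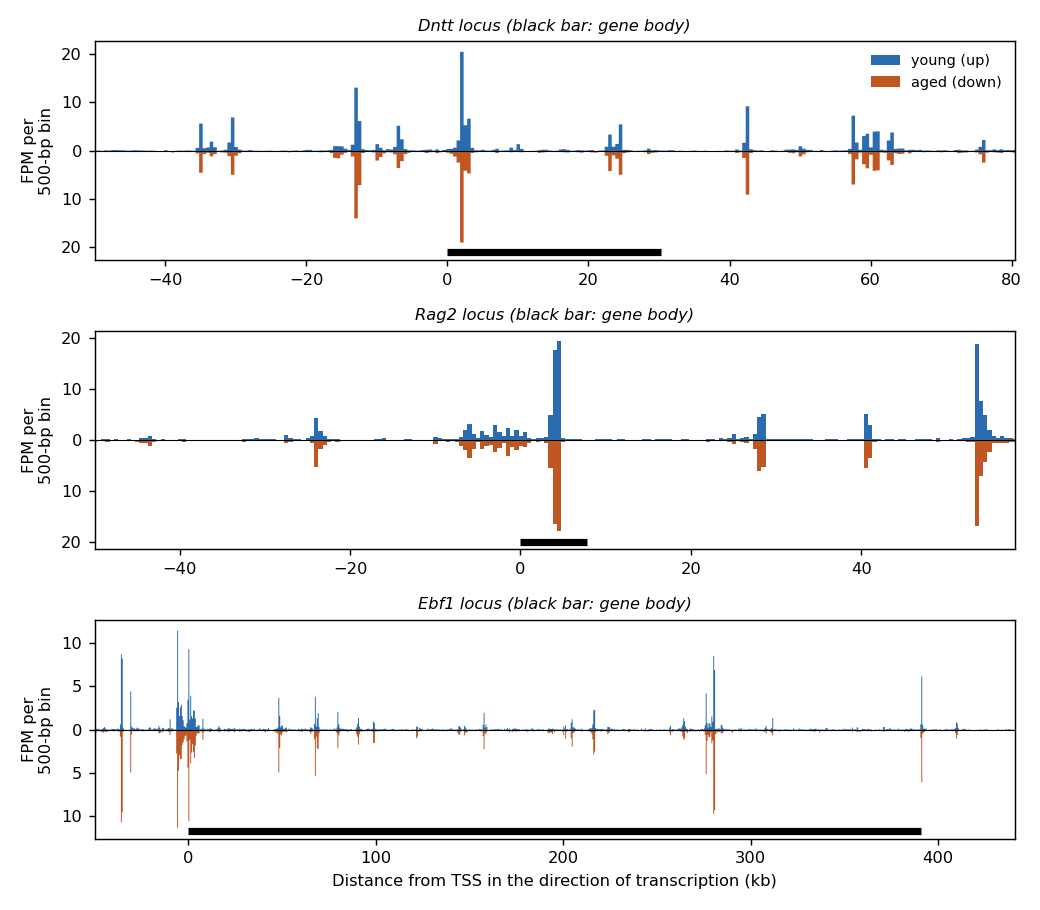
FPM in each 500-bp bin along the Dntt, Rag2 and Ebf1 loci by distance from the start in kb, with Young drawn upwards and Aged downwards and the gene body as a black bar. In both libraries the intronic peaks 2.02 kb and 4.06 kb from the start lead at Dntt and Rag2.

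At the Ebf1 locus the sum over peaks went the other way, while counts by the rule of size were near the shares over all peaks near genes. Of 24 peaks with at least 50 fragments, 6 (25%) were higher in Aged HSCs and 3 (12.5%) lower. Over all peaks near protein-coding genes 22.5% were higher and 15.5% lower. Of the 24 peaks, 6 had a ratio below 0. The interval lay above 0 for 6 peaks and below 0 for 2, and over all peaks near genes it lay above 0 for 17.5%. The sum over the 33 peaks had a log2 ratio of 0.19 (0.12 to 0.26). The intronic peak 48.2 kb from the start had 153 and 154 fragments and a log2 ratio of 0.42 (0.08 to 0.75), and one 67.4 kb from it had 138 and 138 fragments and a log2 ratio of 0.41 (0.06 to 0.76). The most open one outside the promoter, chr11:44581035-44581736, lay 35.9 kb before the start with 470 and 405 fragments and a log2 ratio of 0.19 (0.00 to 0.39). The lowest of those with at least 100 fragments, just past the end of the gene, had 212 and 156 fragments and a log2 ratio of -0.03 (-0.34 to 0.27). The 2 peaks with an interval below 0 were smaller and reached the minimum of 50 through their Young fragments. The one 10.2 kb before the start had 42 and 14 fragments and a log2 ratio of -1.11 (-2.17 to -0.28), and the intronic one 311 kb from it had 45 and 16 fragments and -1.03 (-2.01 to -0.23). Of the peaks with 50 to 100 fragments, 3 had higher ratios than the peak at 48.2 kb, namely 0.80 (0.19 to 1.43) at 98.6 kb with 41 and 54 fragments, 0.77 (0.10 to 1.47) 4.68 kb before the start with 34 and 44, and 0.71 (0.10 to 1.351) at 204 kb with 41 and 51.

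At the recombinase locus, 3 of 13 peaks (23.1%) with at least 50 fragments around Rag1 were higher in Aged HSCs and none was lower. Over all peaks near protein-coding genes 22.5% were higher and 15.5% lower. Counts around Rag2 were the same, and the 3 higher peaks were shared with Rag1. For 2 of these the interval lay above 0. With stricter peaks 1 of 14 was higher and 1 lower around either gene. The sum over the peaks had a log2 ratio of -0.02 (-0.10 to 0.05) around Rag1 and 0.00 (-0.07 to 0.08) around Rag2. The most open peak, chr2:101628318-101629228, lies in an intron of Rag2 that the longer gene B230118H07Rik also spans, and held 1078 Young and 767 Aged fragments, 31.1 and 29.3 FPM, with a log2 ratio of -0.08 (-0.22 to 0.05). That peak alone held most of the fragments of the Rag2 body. A peak 3.32 kb before Rag1 had 257 and 244 fragments and a log2 ratio of 0.33 (0.07 to 0.59), and one 5.72 kb before Rag2 had 45 and 54 fragments and 0.66 (0.07 to 1.27). Near Rag1 the lowest peak with at least 100 fragments lay 44.5 kb before the start, in Traf6, with 129 and 80 fragments and a log2 ratio of -0.28 (-0.70 to 0.13). Near Rag2, by the same limit, the lowest lay 2.84 kb before the start with a log2 ratio of -0.26 (-0.72 to 0.17), and the highest 1.42 kb before it with 72 and 69 fragments and a log2 ratio of 0.35 (-0.15 to 0.84).

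The Il7r locus was nearly closed, with 5 peaks in all and 205 Young and 134 Aged fragments in them. Only 1 peak passed 100 fragments, an intronic site of Capsl 66.4 kb from the start, with 81 and 36 fragments and a log2 ratio of -0.74 (-1.37 to -0.18). It passed that limit through its Young fragments. The peak in an intron of Il7r 6.07 kb from the start, under the minimum, had 8 and 25 fragments and a log2 ratio of 1.94 (0.86 to 3.41), and the one 0.302 kb from the start had 63 and 33 fragments and -0.51 (-1.18 to 0.10). At Pax5, 4 of 16 peaks (25%) were lower and 2 (12.5%) higher, against 15.5% and 22.5% of peaks near all protein-coding genes. Over bins near those genes 13.1% were lower and 26% higher, with a median log2 ratio of 0.058. Of 40 Pax5 bins with at least 50 fragments 1 was lower and 15 were higher, with a median of 0.22. Its peaks 1.74 kb and 3.20 kb before the start went opposite ways, with 72 and 37 fragments and a log2 ratio of -0.54 (-1.17 to 0.04) in the nearer, and 105 and 106 fragments and 0.42 (0.02 to 0.82) in the farther. The nearer passed 100 fragments through its Young fragments. The most open peak of that locus belonged to the start of Zcchc7, 46.0 kb away, with a log2 ratio of 0.02 (-0.09 to 0.13).

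Over all peaks near protein-coding genes 15.5% were lower and 22.5% higher. Around Igll1 and Vpreb1, 2 of 11 peaks (18.2%) were lower and 1 (9.09%) higher. The lowest, chr16:16902304-16902730 in an intron of Ppm1f, had 136 and 60 fragments and a log2 ratio of -0.76 (-1.24 to -0.33), the highest, in the same gene, had 171 and 162 fragments and 0.33 (0.01 to 0.65), and the most open was the start of Spag6l with 0.02 (-0.12 to 0.15). With stricter peaks 1 of 18 at Cd79a was lower and 4 were higher. In the main set of peaks there, 2 of 19 (10.5%) were lower and 2 (10.5%) higher. The lowest lay 40.7 kb before the start with 200 and 112 fragments and a log2 ratio of -0.42 (-0.78 to -0.09), the highest 34.5 kb after it with 87 and 103 fragments and 0.65 (0.22 to 1.08), and the most open at the start of Rps19 with -0.16 (-0.25 to -0.08). At Cd79b, 6 of 21 peaks (28.6%) were lower and 2 (9.52%) higher, and with stricter peaks 6 of 22 were lower and 1 higher. Among Cd79b peaks with at least 100 fragments the lowest and most open both lay at Smarcd2, with log2 ratios of -0.49 (-0.85 to -0.15) and -0.13 (-0.23 to -0.03). The highest, 41.0 kb before the start, had 131 and 130 fragments and a log2 ratio of 0.40 (0.03 to 0.76). A smaller peak 2.74 kb before the start of Cd79b, chr11:106317433-106317579, had 55 and 12 fragments and a log2 ratio of -1.70 (-2.83 to -0.87), and it too passed the minimum through its Young fragments.

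**Figure D4:**
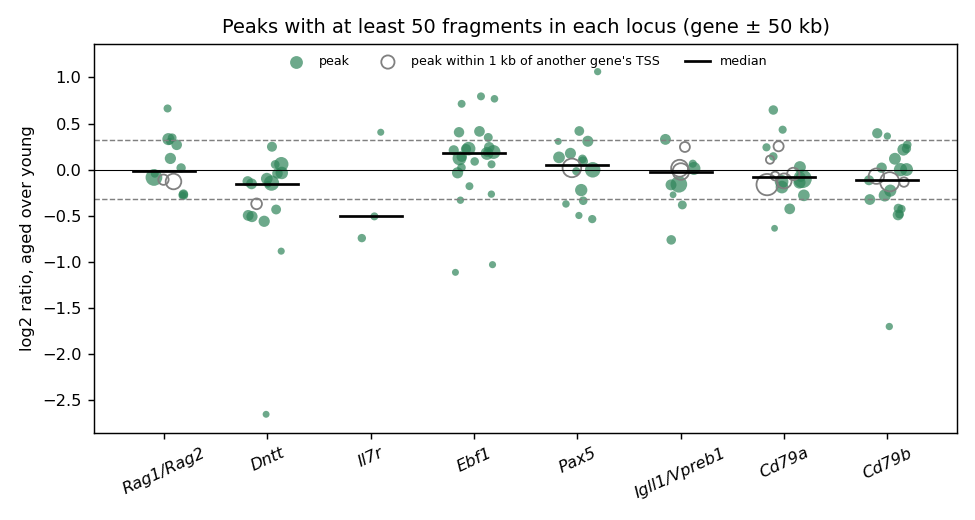
Log2 ratio of Aged over Young for each peak with at least 50 fragments, by locus, with point area growing with fragments, open circles for peaks within 1 kb of the start of another gene, black bars for medians and dashed lines at 25% higher and 20% lower. The median lies at -0.15 at Dntt, with 7 of 17 peaks under the lower line and 1 at -2.65, and at 0.18 at Ebf1.

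From bulk ATAC-seq of separate samples the study lists regions whose accessibility differs with age, and 3 of them lie within 100 kb of one of the 10 genes. In these libraries the one in Dntt, chr19:41030948-41031570, had 745 Young and 509 Aged fragments and a log2 ratio of -0.14 (-0.31 to 0.02). One lies 66.6 kb before Il7r in an intron of Spef2, and had 56 and 121 fragments and a log2 ratio of 1.5 (1.05 to 2.0). The third, intergenic and 92.3 kb before Cd79a, had 41 and 212 fragments and a log2 ratio of 2.75 (2.29 to 3.30). The latter pair lies outside the 50-kb flanks above, and which gene these regions act on was not tested.

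Fragments at these promoters were rare in any single cell. To compare cells at like depth, each was thinned to 3000 in-peak fragments, which kept 4789 Young and 3271 Aged cells. Rag1 then had a fragment in 21 Young cells, 0.439% (0.272 to 0.670), and in 15 Aged cells, 0.459% (0.257 to 0.755). For Ebf1 it was 3.63% (3.12 to 4.20) and 4.40% (3.73 to 5.16), and for Il7r 0.689% (0.475 to 0.966) and 0.428% (0.234 to 0.717). Windows of the same width in the flanks outside peaks had a median of 0.167% and 0.122% near Rag1 and 0.0626% of Young cells near Il7r, and the median olfactory receptor promoter 0.0209% and 0.0306%. Without thinning, Rag1 had a fragment in 1.1% of Young and 0.999% of Aged cells and Ebf1 in 8.64% and 10.6%. Intervals of the thinned shares overlapped between the ages at all 10 promoters. Over gene bodies, the Ebf1 share was 28.9% (27.6 to 30.2) in Young and 32.4% (30.8 to 34.1) in Aged cells, and these intervals did not overlap.

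**Figure D5:**
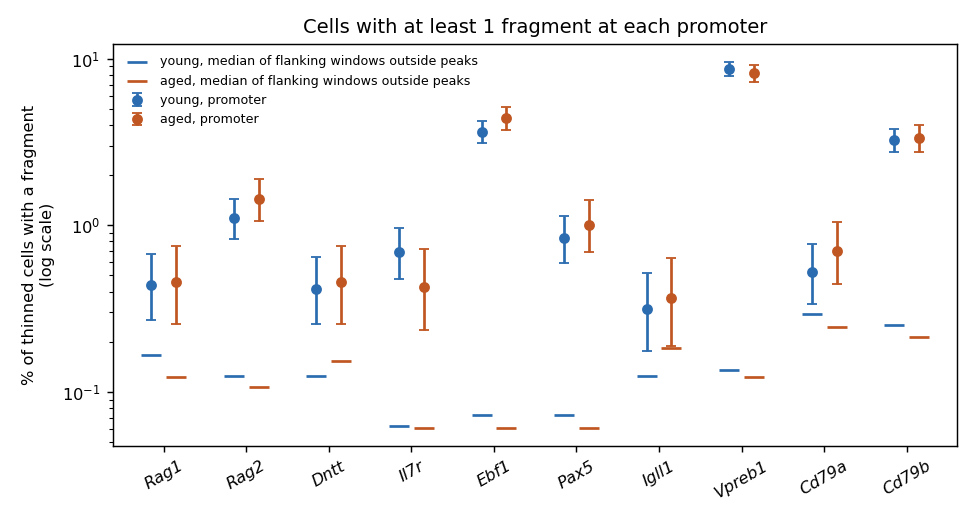
Percent of thinned cells with at least 1 fragment within 1 kb of each start (log scale), with exact binomial 95% intervals, and short bars for the median of flanking windows of the same width outside peaks. Shares run from 0.313% at Igll1 to 8.69% at Vpreb1 in Young cells, and every point lies above its flanking bar.

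Cells with fragments at several of these promoters were few. Leaving out Vpreb1, 515 of 4789 Young cells (10.8%, 9.89 to 11.7) and 391 of 3271 Aged cells (12.0%, 10.9 to 13.1) had a fragment at any of the 9 promoters. A fragment at 2 of them occurred in 21 Young cells (0.439%) and 21 Aged cells (0.642%). Fragments at 3 or more occurred in 0 of 4789 and 0 of 3271 cells, which for thinned cells allows shares of up to 0.0626% and 0.0917%. Without thinning, 133 of 4887 Young and 124 of 3404 Aged cells had a fragment at 2 or more promoters, and 9 (0.184%) and 4 (0.118%) at 3, the highest number. Over the 9 gene bodies, 3.47% of Young and 3.70% of Aged cells had fragments at 3 or more, and the highest number was 5 in Young and 4 in Aged cells. Without thinning these shares were 23.2% and 25.9%, and the highest number was 6 in both.

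Of 36 other early B genes, 31 promoters had at least 50 fragments, and 4 were lower and 1 was higher in Aged HSCs, where 3.98% of all promoters were lower and 9.49% higher. Those lower included Pou2af1, a coactivator in B cells, with 39 and 15 fragments and a log2 ratio of -0.92 (-1.94 to -0.08), which reached the minimum through its Young fragments. Flt3, the receptor of early lymphoid progenitors and a negative marker of the sort, had 1171 and 666 fragments and a log2 ratio of -0.41 (-0.55 to -0.27), and Blnk had 242 and 138 fragments and -0.40 (-0.72 to -0.10). Cd38, a surface enzyme also found on HSCs, was higher, with 330 and 392 fragments and a log2 ratio of 0.65 (0.44 to 0.87), and after it came Erg at 0.21 (-0.01 to 0.42) and Jak3, the kinase of the IL-7 receptor, at 0.14 (0.01 to 0.26). The median of the 36 was -0.06.

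Genes of other lineages are given beside the 10 genes, with the same 3.98% lower and 9.49% higher over all promoters. Of 14 T lymphoid genes, 8 promoters had enough fragments, none was lower and 3 were higher, among them Bcl11b at 0.44 (0.20 to 0.69) and Gata3 at 0.44 (0.25 to 0.63). Of 12 myeloid granule genes, 8 had enough, 3 were lower and 1 was higher. Those lower were Mpo at -0.65 (-1.20 to -0.15), Lcn2 at -0.52 (-1.44 to 0.28) and Mmp8 at -0.52 (-1.46 to 0.31), the latter pair reaching the minimum through their Young fragments, and the one higher was Elane at 0.77 (0.25 to 1.31). None of 5 Ikaros family genes passed the rule of size. The log2 ratio of the summed promoters was 0.26 (0.20 to 0.33) for T lymphoid, 0.0046 (-0.12 to 0.13) for myeloid granule and -0.04 (-0.10 to 0.02) for Ikaros family genes, against -0.03 for the 10 early B genes.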

How the data were processed

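Single-cell ATAC-seq libraries of sorted Young and Aged HSCs were analysed, with groups taken from the sample labels. The authors used Cell Ranger ATAC and the mm10 genome to align droplet libraries (10x Genomics), which drops duplicate reads and shifts fragment ends by the offset of the transposase. The deposited files hold counts per barcode made by the authors, without normalization, and lists of unique fragments. Barcodes called as cells with 3000 to 20000 in-peak fragments in that table were kept.

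Peaks were windows dense in cut sites against the genome mean and the local 10000 bp, whichever was larger (Poisson, q under 0.001), merged over libraries. A fragment counted once where at least 1 end lay in a region. Gene starts and bodies are from GENCODE M21 on GRCm38, the same build as mm10. Before each log2 ratio of Aged to Young levels was taken, 1 fragment was added to both counts, and intervals are exact. Doublets were cells with many loci covered by at least 3 fragments, and were kept. All 10 members are named, and in each locus the most open peak outside the promoter window and those with the highest and lowest ratio among peaks with at least 100 fragments. Of the other early B genes, those with the 3 highest and 3 lowest ratios are named, except 1 gene that is not reported here. The Rag1 peak 3.32 kb upstream, the Rag2 peak 5.72 kb upstream, the Cd79b peak 2.74 kb upstream, Dntt, Ebf1 and Il7r peaks beyond the rule, Blnk and the T lymphoid and granule genes were named after their values were seen. Members and lists were chosen with earlier results of these data known. Alternatives changed the cells kept, the scaling, the window, the fragment length, the depth per cell, the added fragment and the subtraction of flanks. Python 3.11.15 scripts used numpy 2.4.6, scipy 1.17.1, pandas 2.3.3, numba 0.67.0 and matplotlib 3.10.9. In-peak fragments in that barcode table were counted over peaks of the authors, whose calls were not used in any other step.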

Additional observations from a re-analysis of the deposited data

Results flagged for a closer look

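Barcodes within the depth limits that were not called as cells were left out of the comparisons, and they also held fragments in the 10 gene bodies. In the Young library 123 such barcodes held 255 fragments, 594 FPM (523 to 672), and in the Aged library 131 barcodes held 423 fragments, 795 FPM (721 to 874). Cells held 357 and 360 FPM. These barcodes had a lower share of fragments in peaks, 51.2% in Young and 34.8% in Aged, and per 1000000 of all nuclear fragments they held 304 and 277, against 247 and 243 in cells. There was no control library, and the choice of barcodes by depth fixed that the limit of 3 counts would be passed.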

How the results depend on the processing

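Fragments at single promoters limited what could be shown, since most held too few to resolve a difference of 25%, and 1 library per age allowed no leave-one-out. No paired analysis was possible because each age had 1 library. Summed promoters had a log2 ratio of -0.03, and -0.13 with fragments shorter than a nucleosome only. Summed gene bodies had 0.01, and -0.090 with short fragments, 0.060 when scaled to fragments at all gene starts and -0.12 after the density of the flanks was subtracted. Summed peaks of the loci had -0.05, and -0.080 when scaled to all nuclear fragments. The cause of these moves was not tested. The Rag1 promoter turned from -0.40 to 0.026 with thinned cells and to 0.18 in windows of 5 kb around the start, while Il7r stayed between -0.86 and -0.33 under all alternatives. The count of promoters lower by the rule of size, 2, was 1 with short fragments, with flanks subtracted or with the 5-kb window and 0 with thinned cells, where Il7r fell under the minimum of 50 fragments and 2 were higher. With windows of 500 bp (Rag2) and at coding transcript starts (Vpreb1) 1 was higher, against 0. The Dntt and Rag2 promoters also turned below 0 with short fragments and in the 5-kb window, and Dntt in that of 500 bp. Igll1 and Cd79a turned to -0.40 with short fragments, Igll1 to -1.11 with flanks subtracted and -0.079 in the 500-bp window, and Cd79b to 0.095 with thinned cells. Of gene bodies, 0 passed it, against 3 lower with short fragments and 1 higher without the 1 kb next to the start. The sum over peaks ranged from -0.22 to -0.18 at Dntt and from 0.14 to 0.21 at Ebf1 over 6 alternatives chosen after seeing the data. Counting fragments that overlap a region without an end in it changed no promoter count. The shares of all features past the fold changed with the minimum and the fold by construction: with no minimum 9.65% of promoters were lower and 20.6% higher, and at 1.5-fold 1.3% and 3.99%.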
